A study of Mus musculus with 6 samples.

Results

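Mitosis, spindle and kinetochore genes are the genes whose products divide a replicated genome between 2 daughter cells. The set described here is a list of 60 named cyclins, mitotic kinases, kinesins, kinetochore proteins, condensin subunits and cytokinesis factors. A gene was represented by a probe set that carries exactly 1 gene symbol, and by the brightest such probe set where there were several. On this basis 59 of the 60 genes were measured, of 19935 genes on the array. Ccnb1 had no single-symbol probe set and was not analysed here. In osteoblastic cells lacking the Y1 receptor, 6.64% of all 19935 genes fell and 6.1% rose at a limma adjusted p under 0.05. Of the 59 genes, 56 fell, none rose, and the median difference was -0.81 on the log2 scale, a 1.75-fold lower signal. When Y1KO replicate 2 was left out, 28 of the genes passed the same test, and all 59 were still lower in Y1KO.

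Expression was measured on 6 single-channel Affymetrix arrays, 4 of wild-type (WT) cells and 2 of cells from mice deficient in the Y1 receptor for neuropeptide Y (Y1KO). All mice were male and all carried green fluorescent protein (GFP) under a 3.6-kb fragment of the rat type I collagen promoter, so the reporter was shared by both groups. Stromal cells of the femoral and tibial bone marrow were grown for 7 days in control medium, then trypsinised, and the GFP-positive cells were collected by flow cytometry before RNA was extracted and labelled with biotin. The gate takes cells in which this collagen fragment is active. The sources used here do not give the kind of Y1 deletion, the strain or the age of the mice. Although the series counts 4 and 2 mice, the labels leave unsaid whether each array stands for 1 animal or 1 culture. The p-values therefore reflect only how far these arrays spread, which may be technical.

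The transcripts of mitotic genes are made late in the cell cycle and are low or absent in cells that have left it. Cyclin-dependent kinase activity starts mitosis, condensins compact the chromosomes, kinetochores tie them to the spindle, the spindle checkpoint holds division back until every kinetochore is attached, and the anaphase-promoting complex then releases it. In marrow stromal cultures, proliferating precursors give rise to matrix-forming osteoblasts, and division slows as the cells mature.

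The decrease of mitotic transcripts in Y1KO was spread over nearly the whole list. Of all 19935 genes, 6.64% were lower in Y1KO at a limma adjusted p under 0.05 and 6.1% were higher. Against this background, 56 of the 59 mitotic genes fell (58 at an unadjusted p under 0.05) and limma called none higher (0 at an unadjusted p under 0.05). The list was chosen with earlier results of these data known, so this contrast is a description. The number of calls rested on the second Y1KO array: without Y1KO replicate 2, 28 mitotic genes were called lower, and without Y1KO replicate 1, 52 were. The differences of the 59 genes ran from -1.22 for Top2a to -0.10 for Bub3, with quartiles of -0.90 and -0.70, whereas the median over all genes was 0.01. A fall of at least 2-fold was seen for 5 of them, Top2a, Ncaph, Ncapg, Prc1 and Kif15, and for 1.46% of all genes. Both Y1KO arrays lay below every WT array for 57 of the 59 genes, compared with 17.3% of all genes. For 52 of the 56 genes that fell, the gap between the higher Y1KO array and the lowest WT array was wider than the whole range of the WT arrays. The test that called these genes favours wide gaps, and the share over all genes was not counted. Among the 1000 largest decreases of all genes were 53 of the 59. In RNA from a sorted population, fewer cells in mitosis and less mitotic RNA per cell cannot be told apart.

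**Figure D1:**
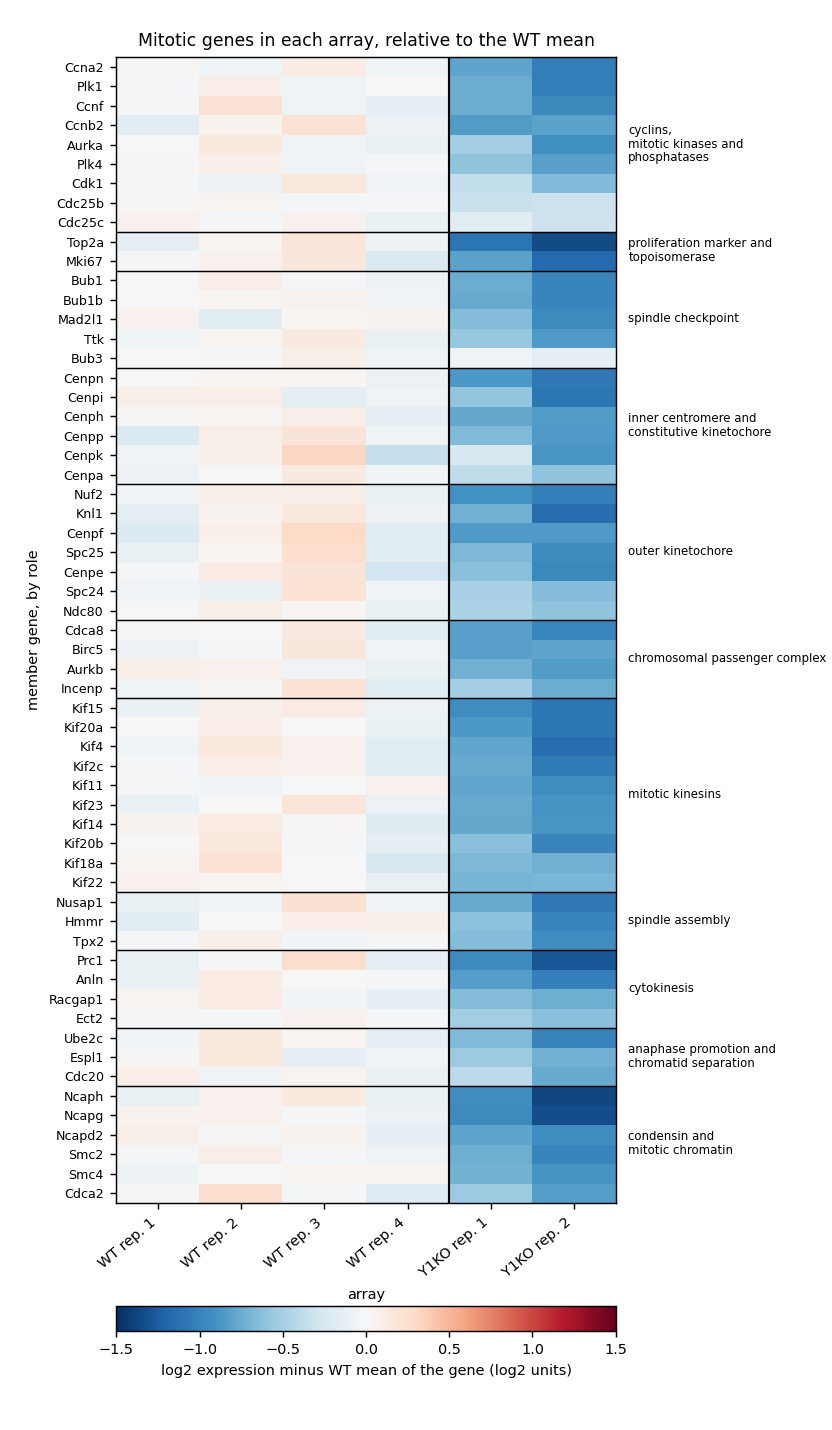
Log2 expression of the 59 mitotic genes in each of the 4 WT and 2 Y1KO arrays, as the difference from the WT mean of the gene (colour, log2 units), with genes in rows grouped by role. The mean over the 59 genes lies between -0.10 and 0.07 in the WT arrays and at -0.67 and -0.90 in the Y1KO arrays, and the rows of Bub3 and Cdc25c are the palest in Y1KO.

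The arrays within a genotype were not equal. Averaged over the 59 genes relative to the WT mean, WT replicates 1 to 4 stood at -0.03, 0.05, 0.07 and -0.10, and Y1KO replicates 1 and 2 at -0.67 and -0.90. WT replicate 3 was the highest WT array for 29 genes and WT replicate 2 for 23, while WT replicate 4 was the lowest for 34. Y1KO replicate 2 read below Y1KO replicate 1 for 54 of the 59 genes. Leaving out any WT array moved the count by far less, and 55 genes were called with each WT array left out in turn. The direction did not depend on a single array, since all 59 genes were lower in Y1KO with each array left out. They were also lower in the other alternative analyses, of which the filter at percentile 60 left out 6 genes.

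The medians over all genes were close, at 5.67 to 5.71 in the WT arrays and 5.62 and 5.63 in Y1KO replicates 1 and 2. Both Y1KO medians lay below every WT median. With each array centred on its median, the median difference of the mitotic genes was -0.75. The transcript of the deleted receptor, Npy1r, read 3.11, 2.84, 2.78 and 3.00 in WT and 2.89 and 2.83 in Y1KO. It stood at percentile 9.42 of all genes in WT, with a level this low in both genotypes and a difference of -0.08 (limma adjusted p = 0.768), so it provides no check of the labels. Markers of the labelled cell type were high: Col1a1, the gene of the main bone collagen chain, stood at percentile 99.99 of all genes in WT, and every measured osteoblast marker stood above percentile 82.1.

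Promoters of mitotic genes are known to carry a cell cycle homology region (CHR) near the transcription start, which the DREAM and MYB-MuvB complexes bind, and CCAAT boxes, which the factor NF-Y binds. The sequences of 5 genes are shown: the 4 genes of largest decrease with both elements in their window, and Bub3, the gene of smallest difference. Those 4 were picked for holding both elements, so the presence of matches in them follows from that choice. The windows are RefSeq sequences of mouse build GRCm38.p6, from 250 bases before to 30 bases after the annotated transcription start, 5′ to 3′ in the direction of the gene. Top2a lies at chr11:99024160-99024439 on the minus strand, Ncapg at chr5:45669675-45669954 on the plus strand, Prc1 at chr7:80294201-80294480 on the plus strand, Mki67 at chr7:135716350-135716629 on the minus strand and Bub3 at chr7:131560120-131560399 on the plus strand. Capitals mark the CHR letters TTTGAA or TTCGAA and the CCAAT box, each on either strand.
Top2a: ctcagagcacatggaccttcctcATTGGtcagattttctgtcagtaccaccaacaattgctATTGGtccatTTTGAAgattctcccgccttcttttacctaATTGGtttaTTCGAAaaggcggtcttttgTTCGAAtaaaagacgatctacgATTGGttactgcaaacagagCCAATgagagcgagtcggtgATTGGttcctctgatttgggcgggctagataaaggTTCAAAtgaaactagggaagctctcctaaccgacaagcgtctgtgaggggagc
Ncapg: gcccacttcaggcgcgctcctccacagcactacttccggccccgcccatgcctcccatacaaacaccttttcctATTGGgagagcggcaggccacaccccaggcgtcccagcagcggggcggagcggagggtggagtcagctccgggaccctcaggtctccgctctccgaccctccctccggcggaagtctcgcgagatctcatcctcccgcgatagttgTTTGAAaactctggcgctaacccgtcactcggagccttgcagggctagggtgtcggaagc
Prc1: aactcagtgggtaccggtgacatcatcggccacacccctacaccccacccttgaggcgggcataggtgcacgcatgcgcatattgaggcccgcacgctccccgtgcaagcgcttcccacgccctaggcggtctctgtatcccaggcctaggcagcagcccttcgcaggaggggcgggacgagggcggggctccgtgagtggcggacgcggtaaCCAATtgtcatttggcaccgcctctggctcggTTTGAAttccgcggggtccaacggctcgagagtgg
Mki67: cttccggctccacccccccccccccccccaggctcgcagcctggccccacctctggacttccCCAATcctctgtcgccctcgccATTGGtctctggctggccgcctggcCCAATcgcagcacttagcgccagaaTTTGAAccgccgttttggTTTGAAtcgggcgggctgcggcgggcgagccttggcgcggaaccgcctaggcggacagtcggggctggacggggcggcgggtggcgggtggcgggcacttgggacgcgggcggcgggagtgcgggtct
Bub3: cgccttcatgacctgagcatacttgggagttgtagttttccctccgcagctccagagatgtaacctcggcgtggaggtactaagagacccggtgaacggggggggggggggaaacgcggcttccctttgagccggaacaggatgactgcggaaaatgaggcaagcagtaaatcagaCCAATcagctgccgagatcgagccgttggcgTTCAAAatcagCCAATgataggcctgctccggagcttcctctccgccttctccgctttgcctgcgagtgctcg
The Top2a window holds 4 CHR matches and 6 CCAAT matches, and that of Mki67 holds 2 and 3. Single matches of each stand in the windows of Ncapg and Prc1. Bub3 has 1 CHR match and 2 CCAAT matches within the same distance of the start, although its transcript did not pass the test.

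A promoter window of 250 bases before to 50 after the start was on file for 50 of the 59 genes, with several starts for some. The letters searched on both strands were TTTGAA and TTCGAA for the CHR, CCAAT, and TTTCCCGC, TTTGGCGC, TTTCGCGC and TTTGCCGC for E2F, and matches of different elements could overlap. CHR letters were present in 38 of the 50 genes (76%), compared with 19.0% of the 15612 measured genes with a window. CCAAT was found in 36 (72%) against 41.7%, and both together in 32 (64%) against 7.69%. E2F letters were found in 5 (10%) against 3.48%. Restricting the comparison to genes with a single window gave CHR letters in 35 of 46 mitotic genes (76.1%) and in 17.3% of 12975 genes. CHR matches also lay close to the start: 35 of the 38 genes had one between 100 bases before and 50 bases after it (92.1%), which was the case for 42.4% of all genes with a CHR match.

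**Figure D2:**
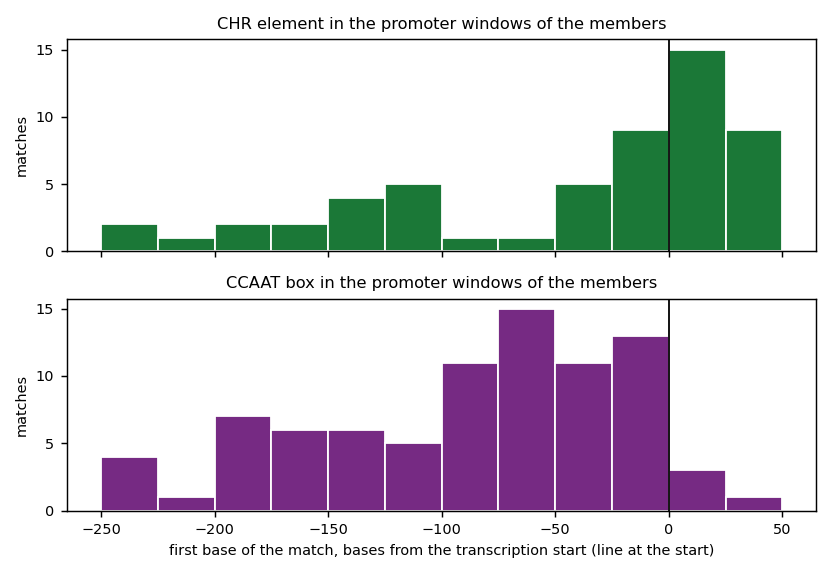
Distance of the first base of each CHR match (top) and each CCAAT match (bottom) from the annotated transcription start, in bases, over the promoter windows of the 50 mitotic genes, counted in bins. The 56 CHR matches have a median position of -16. The 83 CCAAT matches have one of -71, with 50 of the CCAAT matches in the 100 bases before the start. Matches were counted in each window, so a site in overlapping windows of the same gene counts more than once.

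Among the mitotic genes themselves, those with and without the letters differed little. The 38 genes with a CHR match had a median difference of -0.84 and the 12 without one a median of -0.80. Ncaph, Nuf2, Nusap1, Mad2l1, Birc5, Cenpp, Plk4 and Kif18a had neither a CHR nor a CCAAT match in the window and fell nevertheless. The 990 other genes that were lower in Y1KO and had a window held CHR letters in 22.1% of cases, and the 983 genes that were higher in 16.3%. Among DNA replication genes, 22.2% of 27 held CHR letters and 44.4% held E2F letters. These are counts of letters in a window and say nothing of binding in these cells.

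Top2a and Mki67 had the largest median decrease of any role, -1.10. Top2a, the topoisomerase that untangles sister chromatids and whose promoter is printed above, read 9.15, 9.34, 9.49 and 9.23 in WT and 8.20 and 7.96 in Y1KO. Its groups were far apart, with a WT mean of 9.30 ± 0.14 (SD, n = 4) and a Y1KO mean of 8.08 ± 0.17 (SD, n = 2). Top2a fell by 1.22 (SE 0.12, limma adjusted p = 0.000845), a 2.33-fold lower signal and the smallest adjusted p of the 59 genes. Mki67 encodes the Ki-67 protein that coats mitotic chromosomes and serves as a marker of cycling cells. It read 8.71, 8.79, 8.88 and 8.50 in WT and 7.92 and 7.55 in Y1KO and fell by 0.98 (SE 0.14, limma adjusted p = 0.00313). Neither gene overlapped between genotypes, and 17.3% of all genes were likewise separated with Y1KO lower. A second probe set for Top2a read near the bottom of the range, with a mean of 2.16, and on it the difference was -0.38 (limma adjusted p = 0.198).

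**Figure D3:**
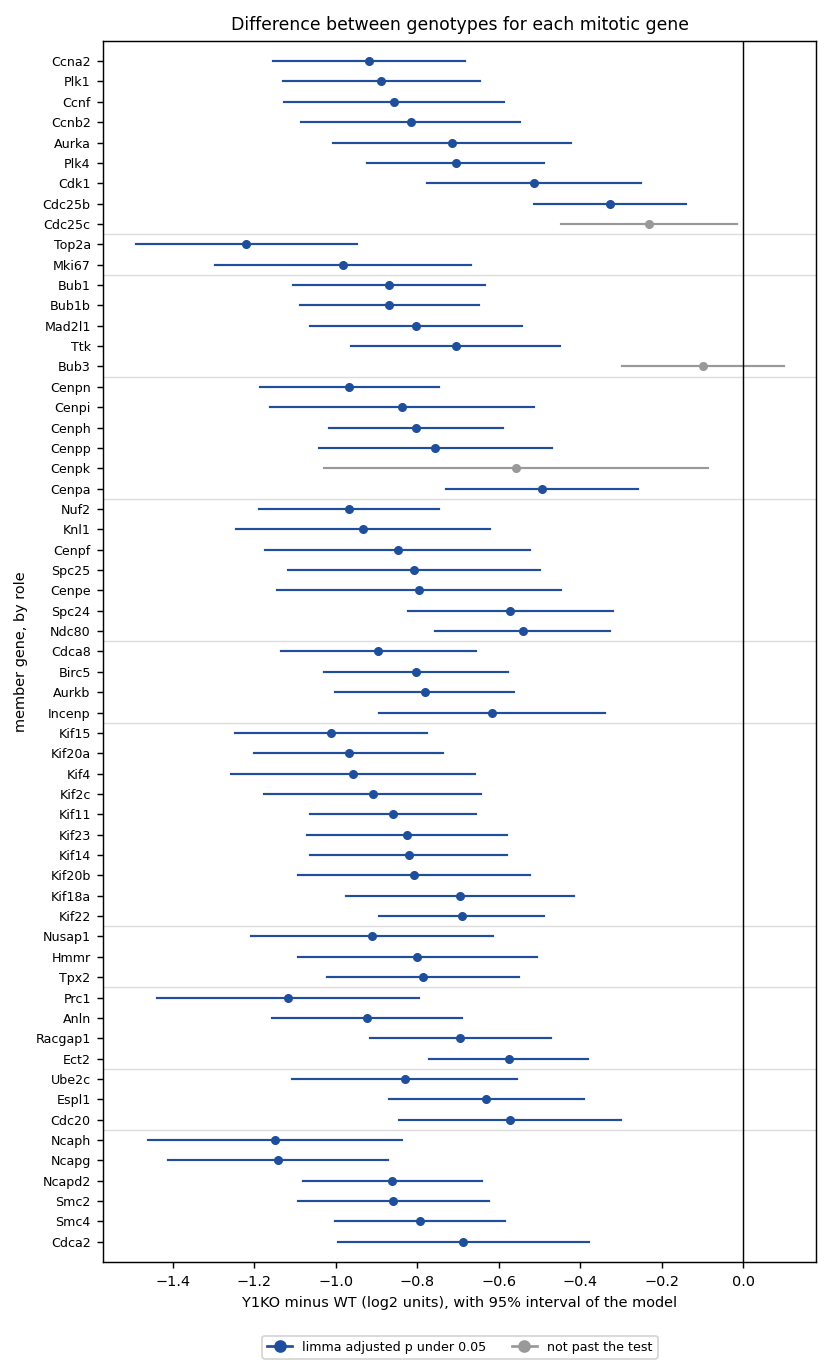
Difference between Y1KO and WT for each of the 59 mitotic genes (log2 units, horizontal axis), with the 95% interval of the model as a line, grouped by role from top to bottom. Blue genes passed the test and the 3 grey genes, Cdc25c, Bub3 and Cenpk, did not. All points lie left of 0, and the interval of Bub3 alone reaches past it.

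Of the 9 measured cyclins, mitotic kinases and phosphatases, 8 fell, with a median of -0.72. Ccna2, the A-type cyclin that acts from S phase into mitosis, showed the largest decrease. It read 9.49, 9.42, 9.59 and 9.42 in WT and 8.68 and 8.44 in Y1KO and fell by 0.92 (SE 0.10, limma adjusted p = 0.00137). Plk1, a kinase needed for centrosome maturation and mitotic entry, fell by 0.89, Ccnf, an F-box cyclin, by 0.86 and Ccnb2, a B-type cyclin, by 0.82. Aurka, the spindle pole kinase, fell by 0.72 and Plk4, which controls centriole duplication, by 0.71. Cdk1, the catalytic partner of the mitotic cyclins, read 8.72, 8.66, 8.91 and 8.70 in WT and 8.38 and 8.09 in Y1KO. Its fall of 0.51 (SE 0.12, limma adjusted p = 0.0207) stands beside falls of 0.92 for Ccna2 and 0.82 for Ccnb2, and the difference between these genes was not tested. The phosphatases that switch Cdk1 on showed the smallest differences of this role. Cdc25b read 7.15, 7.18, 7.10 and 7.11 in WT and 6.80 and 6.81 in Y1KO and fell by 0.33 (SE 0.08, limma adjusted p = 0.0322), a call that was lost in 8 of the 16 alternative analyses. Cdc25c read 6.86, 6.75, 6.85 and 6.69 in WT and 6.63 and 6.48 in Y1KO, so that the groups lay next to each other. Its difference of -0.23 (SE 0.10, limma adjusted p = 0.174) did not pass the test.

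Among the 5 spindle checkpoint genes, 4 fell, by 0.71 to 0.87, and 1 did not pass the test. Bub1, a kinase that recruits checkpoint proteins to kinetochores, read 7.98, 8.08, 7.96 and 7.90 in WT and 7.24 and 6.98 in Y1KO and fell by 0.87 (SE 0.10, limma adjusted p = 0.00159). Bub1b, which encodes the checkpoint component BubR1, fell by 0.87, Mad2l1, the checkpoint effector that binds Cdc20, by 0.80 and Ttk, the kinase also called Mps1, by 0.71. Bub3, the WD40 protein that binds both Bub1 and BubR1, read 9.43, 9.42, 9.52 and 9.37 in WT and 9.37 and 9.30 in Y1KO. Y1KO replicate 1 lay inside the WT range, and the difference of -0.10 (SE 0.09, limma adjusted p = 0.579) had a 95% interval from -0.30 to 0.10. The interval reaches neither the fall of Bub1 nor that of Bub1b.

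Of the 6 genes of the inner centromere and constitutive kinetochore, 5 fell, with a median of -0.78. Cenpn, which recognises the centromeric nucleosome, read 7.80, 7.83, 7.83 and 7.71 in WT and 6.94 and 6.72 in Y1KO and fell by 0.97 (SE 0.10, limma adjusted p = 0.000877). Cenpi, Cenph and Cenpp, further subunits of the constitutive centromere network, fell by 0.84, 0.80 and 0.76. Cenpa, the histone H3 variant that marks centromeres, showed the smallest difference, from 7.91, 7.99, 8.12 and 7.95 in WT to 7.61 and 7.39 in Y1KO. Cenpa fell by 0.49 (SE 0.10, limma adjusted p = 0.0155), with no overlap of the groups, as for 17.3% of all genes with Y1KO lower. Cenpk, a partner of Cenph and Cenpi, had a WT SD of 0.27 against a median of 0.11 over the 59 genes. It read 5.49, 5.60, 5.84 and 5.18 in WT and 5.28 and 4.65 in Y1KO, so that WT replicate 4 lay below Y1KO replicate 1. Its difference of -0.56 (SE 0.21, limma adjusted p = 0.13) did not pass the test. Its WT mean of 5.53 was the lowest of the set.

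All 7 outer kinetochore genes fell, with a median of -0.81. Nuf2 led them, reading 8.30, 8.42, 8.42 and 8.23 in WT and 7.44 and 7.31 in Y1KO, and fell by 0.97 (SE 0.10, limma adjusted p = 0.000877). Nuf2 and Ndc80 form the arm of the 4-subunit Ndc80 complex that grips microtubules, and Spc24 and Spc25 anchor it to the kinetochore. Ndc80 read 6.78, 6.88, 6.81 and 6.67 in WT and 6.31 and 6.18 in Y1KO and fell by 0.54 (SE 0.09, limma adjusted p = 0.0073). Spc25 fell by 0.81 and Spc24 by 0.57, so the 4 subunits of this complex fell by between 0.54 and 0.97. Knl1, the scaffold that receives Bub1 and Bub3, fell by 0.93. Cenpf, a large kinetochore protein of late G2 and mitosis, fell by 0.85 and Cenpe, the kinesin that moves chromosomes to the spindle equator, by 0.80.

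The 4 genes of the chromosomal passenger complex, which corrects faulty attachments and later acts at the midzone, all fell. Cdca8, which encodes borealin, read 7.54, 7.53, 7.65 and 7.37 in WT and 6.71 and 6.54 in Y1KO and fell by 0.90 (SE 0.11, limma adjusted p = 0.00152). Birc5, which encodes survivin, fell by 0.80 and Aurkb, the kinase of the complex, by 0.78. Incenp, its scaffold, read 7.80, 7.89, 8.07 and 7.72 in WT and 7.38 and 7.13 in Y1KO. Incenp fell by 0.62 (SE 0.12, limma adjusted p = 0.0121), and its groups were separated by 0.34, slightly less than the range of 0.35 among the WT arrays.

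All 10 mitotic kinesins fell, within a range of 0.69 to 1.01 and with a median of -0.84. Kif15, a motor that helps keep the spindle bipolar, read 6.79, 6.96, 7.01 and 6.80 in WT and 5.95 and 5.80 in Y1KO and fell by 1.01 (SE 0.10, limma adjusted p = 0.000936). Kif11, also called Eg5, which pushes the spindle poles apart, fell by 0.86. Among motors of the central spindle, Kif20a fell by 0.97, Kif23 by 0.83 and Kif4, a chromokinesin, by 0.96. Kif2c, a microtubule depolymerase, fell by 0.91, Kif14, a cytokinesis motor, by 0.82, Kif20b by 0.81 and Kif18a, which limits chromosome movements, by 0.70. Kif22, a motor that binds chromosome arms, showed the smallest difference, from 7.46, 7.43, 7.39 and 7.28 in WT to 6.69 and 6.71 in Y1KO, and fell by 0.69 (SE 0.09, limma adjusted p = 0.00218). A second probe set for Kif14 had a mean of 2.92, and on it the difference was -0.20 (limma adjusted p = 0.268).

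The 3 spindle assembly genes fell. Nusap1, a microtubule-bundling protein, read 6.70, 6.76, 7.04 and 6.74 in WT and 6.06 and 5.74 in Y1KO and fell by 0.91 (SE 0.13, limma adjusted p = 0.0033). Hmmr, a spindle pole protein, fell by 0.80. Tpx2, the activator of Aurka at the spindle, read 8.95, 9.06, 8.93 and 8.95 in WT and 8.33 and 8.04 in Y1KO and fell by 0.79 (SE 0.10, limma adjusted p = 0.00235). In each of the 3 genes the Y1KO arrays lay below all WT arrays, as they did for 17.3% of all genes.

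Each of the 4 cytokinesis genes fell. Prc1 crosslinks the antiparallel microtubules of the midzone, and its promoter is among those printed above. It read 8.16, 8.24, 8.53 and 8.14 in WT and 7.32 and 6.98 in Y1KO and fell by 1.12 (SE 0.14, limma adjusted p = 0.00209), a 2.17-fold lower signal. Anln, the scaffold of the contractile ring, fell by 0.92 and Racgap1, a subunit of centralspindlin, by 0.69. Ect2, the exchange factor that activates RhoA at the cleavage site, read 8.42, 8.43, 8.52 and 8.43 in WT and 7.92 and 7.82 in Y1KO and fell by 0.58 (SE 0.09, limma adjusted p = 0.00373). The WT arrays of Ect2 spanned only 0.09, against a gap of 0.50 between the genotypes.

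The 3 genes that drive anaphase fell, with a median of -0.63. Ube2c, the ubiquitin-conjugating enzyme of the anaphase-promoting complex, read 7.89, 8.08, 7.97 and 7.80 in WT and 7.27 and 6.94 in Y1KO and fell by 0.83 (SE 0.12, limma adjusted p = 0.00347). Cdc20, the mitotic activator of that complex, read 7.95, 7.80, 7.89 and 7.74 in WT and 7.45 and 7.09 in Y1KO and fell by 0.57 (SE 0.12, limma adjusted p = 0.0156). Espl1, which encodes separase, the protease that cuts cohesin, fell by 0.63. No array of one genotype crossed into the other for these genes, a separation with Y1KO lower that 17.3% of all genes showed.

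Condensin genes showed some of the largest decreases. Ncaph and Ncapg, regulatory subunits of condensin I, fell by 1.15 (SE 0.14, limma adjusted p = 0.00165) and by 1.14 (SE 0.12, limma adjusted p = 0.000966). Ncaph read 7.64, 7.82, 7.91 and 7.65 in WT and 6.82 and 6.39 in Y1KO. Ncapg read 7.73, 7.75, 7.65 and 7.59 in WT and 6.73 and 6.35 in Y1KO, and its signal was 2.21-fold lower. Both Y1KO arrays of each gene lay below all WT arrays, which was the case for 17.3% of all genes. Ncapd2, the third regulatory subunit, fell by 0.86, and the ATPase subunits Smc2 and Smc4, which condensin II shares, by 0.86 and 0.79. Cdca2, a chromatin-bound phosphatase regulator of mitotic exit, showed the smallest difference of this role, from 7.10, 7.36, 7.10 and 6.92 in WT to 6.58 and 6.29 in Y1KO. It fell by 0.69 (SE 0.14, limma adjusted p = 0.012), with a gap of 0.35 between the genotypes and a range of 0.44 among the WT arrays.

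Relatives of these genes listed for work outside mitosis were examined beside them, and a gene so listed may also act in mitosis. Of all genes, 6.64% fell and 6.1% rose. The 15 measured kinesins and light chains of interphase transport had a median difference of -0.17, against -0.84 for the 10 mitotic kinesins, and 1 fell and 1 rose. Kif3a, a motor of cilia and vesicle transport, fell by 0.40 (SE 0.10, limma adjusted p = 0.0298). Kif21a, a motor that regulates microtubule growth, read 6.39, 6.33, 6.33 and 6.07 in WT and 7.31 and 7.40 in Y1KO and rose by 1.08 (SE 0.11, limma adjusted p = 0.000963). Kif3b, the partner of Kif3a, differed by 0.03 (SE 0.09, limma adjusted p = 0.889). Of 19 cyclins and cyclin-dependent kinases with roles in transcription and other processes, limma called none lower (3 at an unadjusted p under 0.05) and the median was -0.04. Cdk17 rose by 0.36 (SE 0.09, limma adjusted p = 0.037), while Cdk7, a kinase of transcription initiation, differed by 0.35 (SE 0.11, limma adjusted p = 0.0901) and Ccnk by -0.01 (SE 0.13, limma adjusted p = 0.978). These are separate counts, and the difference between the families was not tested.

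**Figure D4:**
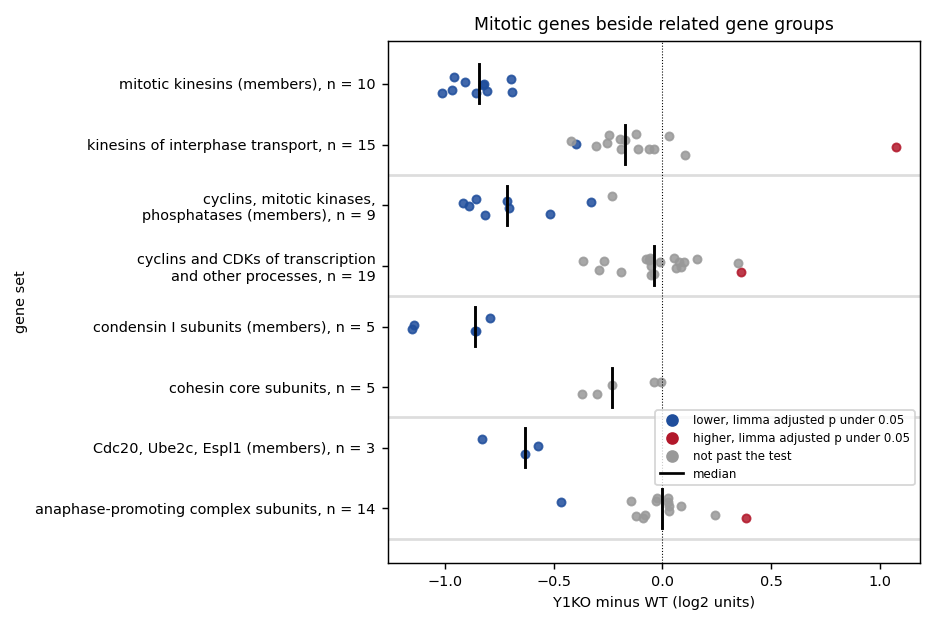
Difference between Y1KO and WT (log2 units, horizontal axis) of each gene in 4 mitotic groups and in a related group of genes beside each, with the median as a bar and colours for genes that passed the test. The groups taken from the 59 mitotic genes have medians from -0.86 to -0.63. The related groups have medians from -0.23 to 0, with Kif21a at 1.08 on the right. The related cohesin core and anaphase-promoting complex subunits also act in mitosis. The condensin I, cohesin and anaphase-promoting complex subunits were grouped after the values were seen. Condensin II subunits and cohesin regulators are not drawn.

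Subunits of larger protein machines were compared too, grouped after the values were seen. All 5 condensin I subunits fell, with a median of -0.86. Of the 3 subunits that condensin II alone has, Ncapg2 fell by 1.06 (SE 0.13, limma adjusted p = 0.00209) and Ncapd3 by 0.68 (SE 0.10, limma adjusted p = 0.00384), while Ncaph2 differed by 0.02 (SE 0.09, limma adjusted p = 0.947). None of the 5 measured cohesin core subunits, which hold sister chromatids together and also fold interphase chromatin, was called by limma (3 were lower at an unadjusted p under 0.05), and their median was -0.23. Stag2 differed by -0.01 (SE 0.09, limma adjusted p = 0.974). Cohesin's regulators Pds5b, Cdca5 and Esco2, named after their values were seen, fell by 0.74, 0.69 and 0.68. The 14 measured subunits of the anaphase-promoting complex had a median difference of -0.00039. Only Anapc11, also named after its value was seen, fell, by 0.47, and Cdc16 rose by 0.38 (SE 0.08, limma adjusted p = 0.0178). Anapc13 differed by 0.02 (SE 0.13, limma adjusted p = 0.946). Fbxo5, the Emi1 inhibitor of that complex, fell by 0.92 (SE 0.12, limma adjusted p = 0.00245), beside the falls of its activator Cdc20 and its enzyme Ube2c.

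Mitotic genes outside the 59 were mostly lower as well. Of 104 measured genes in 6 further lists, 56 fell, 1 rose (Cdc16) and the median was -0.49, while 6.64% of all genes fell. The 29 other kinetochore and centromere genes had 19 that fell and a median of -0.49. Sgo2a, a protector of centromeric cohesion, fell by 0.94 (SE 0.11, limma adjusted p = 0.00152) and Kntc1, a checkpoint protein of the outer kinetochore, by 0.99 (SE 0.12, limma adjusted p = 0.00168). Cenpb, which binds a centromeric DNA box, differed by -0.05 (SE 0.08, limma adjusted p = 0.78). Among 13 other mitotic kinases and regulators 9 fell, including Cdkn3, a phosphatase of cyclin-dependent kinases, by 0.90 (SE 0.11, limma adjusted p = 0.00198) and Wee1, the kinase that restrains Cdk1, by 1.10 (SE 0.14, limma adjusted p = 0.00202). Bora, an activator of Plk1, differed by -0.24 (SE 0.16, limma adjusted p = 0.455). Of 22 other spindle and centrosome genes 15 fell, including Aspm, a spindle pole protein, by 0.90 (SE 0.10, limma adjusted p = 0.00116) and Ckap2l by 0.77 (SE 0.09, limma adjusted p = 0.00159), while Haus8, a subunit of augmin, differed by 0.01 (SE 0.11, limma adjusted p = 0.978). Of 8 other cytokinesis genes 6 fell, including Pimreg by 0.76 (SE 0.08, limma adjusted p = 0.00116) and Cep55, which brings the abscission machinery to the midbody, by 1.11 (SE 0.14, limma adjusted p = 0.00203). Arhgef39 differed by -0.35 (SE 0.13, limma adjusted p = 0.131). Over the 104 genes, the count of 56 became 15 without Y1KO replicate 2.

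Some regulators of mitotic transcription fell too. Of 22 measured, 7 fell, 1 rose and the median was -0.34, while 6.64% of all genes fell and 6.1% rose. Foxm1, the forkhead factor that activates late cell cycle genes, read 7.51, 7.63, 7.61 and 7.40 in WT and 6.69 and 6.58 in Y1KO and fell by 0.91 (SE 0.10, limma adjusted p = 0.00116). Rbl1, which encodes the pocket protein p107 of the DREAM complex, fell by 0.71 (SE 0.09, limma adjusted p = 0.00235). E2f2 differed by -0.01 (SE 0.10, limma adjusted p = 0.975). Rb1, the retinoblastoma protein, named after its value was seen, rose by 0.44 (SE 0.09, limma adjusted p = 0.0154). The 33 measured DNA replication genes, which act in the preceding S phase, had a median of -0.79, close to the -0.81 of the mitotic genes, and 32 of them fell. Mcm4, a subunit of the replicative helicase, fell by 1.22 (SE 0.09, limma adjusted p = 0.000286) and Uhrf1, which maintains DNA methylation behind the fork, by 1.13 (SE 0.09, limma adjusted p = 0.000371). Gins4 differed by -0.31 (SE 0.10, limma adjusted p = 0.0789).

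Within the set, the decrease was of similar size at higher and lower WT levels, but the set holds few dim genes. In WT, 58 of the 59 genes stood above the median of all genes, and 55 did in Y1KO, so most remained well within the range of the array. Genes at or above the median WT level of the set had a median difference of -0.85 and those below it -0.80. Over the 59 genes, which share the same 6 arrays, the WT level and the difference had a Pearson r of -0.15 and a Spearman rho of -0.22. The median WT SD of the mitotic genes was 0.11, against 0.12 over all genes. Of the 56 genes that fell, 17 were called in every one of the 16 alternative analyses, among them Ccna2, Bub1, Bub1b, Kif11, Kif15, Nuf2, Cenpn, Anln, Smc2, Smc4, Ncapd2 and Aurkb.

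Markers of other cells moved with the genotype beside the mitotic genes. For comparison, 6.64% of all genes fell and 6.1% rose. Of 14 macrophage markers 9 rose, among them Adgre1, Csf1r and Cd68, and their summed level on the linear scale was 845 to 1035 in the WT arrays and 1306 and 1998 in Y1KO replicates 1 and 2. Their mean relative to WT was 0.32 and 0.76, beside mitotic means of -0.67 and -0.90. In WT replicates 1 to 4 the macrophage mean was 0.03, 0.06, 0.02 and -0.10, so that WT replicate 4 was the lowest WT array for both lists. Of 10 smooth muscle and pericyte markers 8 fell and Cspg4, named after its value was seen, rose, with summed levels of 15082 to 18348 in WT and 9308 and 8681 in Y1KO. Of 8 adipocyte markers 4 fell (Lpl, Pparg, Cebpa and Fabp4), with summed levels of 1340 to 1967 in WT and 449 and 448 in Y1KO. Of 9 osteoblast markers, 1 rose, Ifitm5, and none fell, while 5 were higher and 0 lower at an unadjusted p under 0.05. The differences of the 9 ran from 0.18 to 1.66. Both Y1KO arrays lay above every WT array for 8 of the 9, as for 3489 of all 19935 genes. Summed osteoblast levels were 36558 to 44724 in WT and 53099 and 53911 in Y1KO. WT replicate 2 had the lowest osteoblast marker mean, -0.61 relative to WT, and a mitotic mean of 0.05, and without this array 55 mitotic genes were called lower. Limma called no marker of granulocytes (12 measured), erythroid cells (8), lymphocytes (11) or endothelium (9), where 2, 0, 1 and 0 were higher and none lower at an unadjusted p under 0.05, and 1 of 5 pan-leukocyte markers, Laptm5, rose. Log2 array values have no 0. In WT the 5 pan-leukocyte markers stood at percentiles 25.1 to 47.0 of all genes, and the 14 macrophage markers at 26.2 to 87.7. Ptprc, the pan-leukocyte gene for CD45, stood at percentile 26.2 in WT and 28.5 in Y1KO. The part of these cells in the mitotic difference was not tested.

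**Figure D5:**
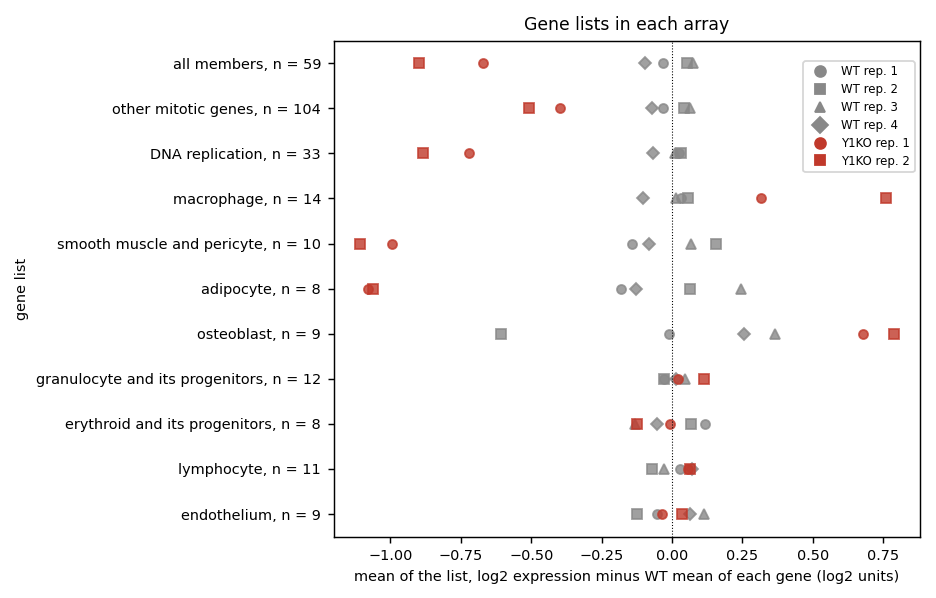
Mean over each gene list of log2 expression minus the WT mean of the gene (log2 units, horizontal axis), for the 4 WT arrays in grey and the 2 Y1KO arrays in red, with lists in rows. The mitotic and DNA replication lists, the smooth muscle and the adipocyte markers lie left of the WT arrays in both Y1KO arrays, and the macrophage markers (0.32 and 0.76) and osteoblast markers (0.68 and 0.79) lie right of them.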

How the data were processed

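The authors deposited log2 expression values for each probe set on each array. The submitters' processing notes name RMA and limma, with no versions or settings. The genome build and probe annotation behind these values are not given in the sources used. Gene names came from the repository's platform annotation: 21780 of 28815 had 1 gene symbol, 1605 several and 5430 none listed. The probe set of highest mean stood for each of the 998 genes with several, leaving 19935 genes. The deposited log2 values were not normalized further. Y1KO was compared with WT by limma 3.58.1 under R 4.3.3 (lmFit, eBayes, genotype only, two-sided), with Benjamini-Hochberg adjustment over all genes and calls at an adjusted p under 0.05, after the script was tested on simulated data. The verbs rose and fell are used of called genes. The small number of arrays limits the precision.

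The genes and lists were chosen with earlier results of these data known. Every mitotic gene could be named, with full statistics for the largest and smallest difference in each role. From the other lists the 2 genes of smallest p and the 1 of largest p were named. Ncaph2, the named cell type markers and every other gene named from these lists were chosen after their values were seen. Alternatives covered scaling, filters, choice of probe set, variance model, a replicate block and each array left out.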

Additional observations from a re-analysis of the deposited data

Results flagged for a closer look

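In 4 genes 1 WT array stood apart from the other 3. The gap from the outermost array to its nearest neighbour, as a share of the range of the 4 WT arrays, was 0.867 for Ect2, 0.859 for Mad2l1, 0.839 for Spc24 and 0.839 for Nusap1, above Dixon's 95% critical value for 4 samples. WT replicate 3 was the high array for Ect2 (8.52), Spc24 (7.73) and Nusap1 (7.04), and WT replicate 2 the low one for Mad2l1 (9.33). In all 4 genes both Y1KO arrays stayed below all WT arrays, as in 17.3% of all genes. In all, 71 groups of 4 WT arrays were examined, and chance flags about 1 in 20.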

How the results depend on the processing

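Every mitotic gene was lower in Y1KO in each of the 16 alternatives that tested it, and none was called higher in any. Leaving out 1 array gave 28 to 56 mitotic genes called lower, 15 to 55 of the 104 further mitotic genes, and 335 to 1290 lower and 152 to 1172 higher of all genes. The lowest of each came without Y1KO replicate 2, which leaves 1 Y1KO array assumed to vary like the others. The median difference became -0.93 when Y1KO replicate 1 was left out and -0.72 when Y1KO replicate 2 was. With no moderation of the variance, 20 mitotic genes, 6 of the further mitotic genes and 204 lower and 140 higher of all genes were called. This setting left the differences as they were, with a mitotic median of -0.81. Only the variance estimate and its degrees of freedom changed. With a replicate block, 53 mitotic genes were called lower. The labels do not say whether replicate numbers pair the samples. Deviations of arrays with the same number correlated at 0.01 and -0.20. These values cannot decide it, because the deviations of the 2 Y1KO arrays mirror each other (r of -1). Centring each array on its median gave 1040 lower and 1596 higher genes, 60.5% of calls higher against 47.9%, with a mitotic median of -0.75. The filter at percentile 60 left out 6 mitotic genes. On the second probe sets of Top2a and Kif14, with means of 2.16 and 2.92, the calls were lost, and the cause was not tested.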
